A study of Mus musculus with 16 samples.

Results

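Day 2 was compared with day 1 in macrophages isolated from mouse fat, over all 16 arrays of the series. Each array carries RNA of 1 pool of cells, and the labels give it a genotype, a fat depot, a day and a pool number. Pools 3 and 4 are labelled day 2 and pools 1 and 2 day 1, so the comparison sets 8 arrays against 8. The members were chosen from these labels alone, and the day difference was taken with the 4 groups of genotype and depot as terms. The groups are KO SAT, KO VAT, WT SAT and WT VAT, with 2 pools of each on each day. SAT is subcutaneous and VAT visceral fat. Per the labels, WT stands for Sucnr1flox/flox mice, whose Sucnr1 alleles are floxed but intact, and KO (KO- LysM) for LysM-Sucnr1-/- mice, in which Cre recombinase under the lysozyme M promoter removes them. That promoter acts in myeloid cells generally and not in macrophages alone. Floxed alleles are thus common to all groups, as are collagenase digestion and an age of 19 to 21 weeks, and how many animals a pool holds is not stated. CD11b beads were used for the selection, per the labels, while another label speaks of F4/80-positive cells; neither is a final sort for macrophages. RNA came from 300000 cells, and its cDNA was amplified over 24 cycles. The letters NCD in the labels are not spelled out there. The labels do not say what was done on the 2 days, nor that the pools hold different animals, so the p-values below measure the spread between these pools, which may be partly technical.

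Macrophages of fat clear dying adipocytes, take up lipid and present antigen, and they respond within minutes to hours to handling, to enzymes used to digest tissue and to cytokines. Sucnr1 is a receptor for extracellular succinate, an intermediate of the citric acid cycle. A comparison of days within groups shows how large the differences between days are beside those of genotype and depot.

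Values were deposited on the log2 scale, summarised by probe set, and ran from 2.91 to 13.19. Each of 17097 genes was read from its probe set with the highest mean. Arrays of different days correlated over the probe sets (a description, with no test) at 0.942 to 0.973 within WT VAT, and at 0.986 or above in the other groups. Arrays of the same day correlated at 0.982 to 0.990 within WT VAT and at 0.992 or above in KO SAT and KO VAT. Within WT SAT the same-day values, 0.987 to 0.992, overlapped those of different days, 0.986 to 0.991. Sucnr1, the deleted gene, had 3.35, 3.51 and 3.54 on day 2 (lowest, median and highest array), against 3.54, 3.59 and 3.65 on day 1. All 16 values lie below the background level of 4.78, set by the 95th percentile of the means of 41 olfactory receptor genes, so its probe set does not check the genotype. Its difference was -0.11 (limma adjusted p = 0.0764). All 7 macrophage markers (Adgre1, Cd68, Csf1r, Itgam, Fcgr1, Mertk and Lyz2) lay above background, with means from 6.49 to 11.19. Markers of other cells were present too: 3 of 3 T cell markers, 2 of 3 B cell, 3 of 3 endothelial and 3 of 4 stromal markers were above background. Of the remaining lists, 2 of 4 neutrophil, 1 of 2 adipocyte, 1 of 3 mesothelial and 1 of 2 erythroid markers were. In RNA from pooled cells, fewer cells of a type and less RNA per cell cannot be told apart.

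Many genes differed between the days, nearly all of them slightly. A gene passed at an adjusted p under 0.05 (limma, Benjamini-Hochberg over all genes, two-sided). On this rule 4831 of 17097 genes passed, 28.3% of those tested. Of these, 2935 were higher on day 2 (17.2% of genes tested) and 1896 lower (11.1%). Only 3 of them differed by 2-fold or more. The median absolute difference over all genes was 0.17 on the log2 scale and the median standard error 0.08. In the same 16-array fit, 8831 genes (51.7%) passed between KO and WT and 503 (2.94%) between VAT and SAT. Both counts are for the values as deposited and were not taken after other normalizations. The interquartile range of values on an array ran from 2.36 to 2.63 in KO and from 2.01 to 2.54 in WT. Its part in the genotype count was not tested. By the median over genes, day held 13.9% of the sum of squares, groups 40.01%, groups by day 15.1% and pools within a group and day 21.8%. These shares are not divided by degrees of freedom, of which day has the fewest and pools the most. They therefore do not rank the sources by size.

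The direction of the counts depended on the scaling. With values as deposited, 60.8% of the genes that passed were higher on day 2. After quantile normalization of the arrays 1871 genes passed (10.9%), and 38.4% of them were higher, 718 (4.20% of genes tested) against 1153 lower (6.74%). With the interquartile range of each array as a further term in the model, called here the array spread term, 204 genes passed (1.19%), 100 higher and 104 lower. Of the 4831 genes, 1594 passed after quantile normalization with the same sign, which is 33.0% of the first list and 85.2% of the second, and 0 with the opposite sign. The count moved by over 1.5 times when 1 array was left out in 5 cases: it was 2773 without WT VAT pool 4, 2934 without WT VAT pool 3, 3004 without KO VAT pool 3, 3162 without KO VAT pool 2 and 7709 without WT SAT pool 4.

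The spread of values on the arrays moved with the day. Day 2 arrays had an interquartile range of 2.48 ± 0.18 log2 units and day 1 arrays 2.28 ± 0.16 (SD, n = 8 each), a difference of 0.20 (exact permutation test with days exchanged within groups, two-sided, p = 0.00617; adjusted over 7 array-level values 0.0216; the smallest p the design allows is 0.00154). In KO SAT it was 2.610 and 2.629 on day 2, against 2.452 and 2.371 on day 1. KO VAT arrays had 2.623 and 2.509 on day 2, against 2.466 and 2.362 on day 1. In both KO groups the days did not overlap. WT SAT arrays had 2.289 and 2.117 on day 2, against 2.152 and 2.252 on day 1, and the days overlapped. In WT VAT the range was 2.504 and 2.536 on day 2, against 2.006 and 2.153 on day 1, the widest gap of the 4 groups. WT VAT pool 1 had the smallest range of the 16 arrays. The first principal component, with 57.5% of the variance, differed by 27.4 (exact permutation test, two-sided, p = 0.017, adjusted 0.0396), with the opposite sign in WT SAT (-2.66). The third, with 8.70% of the variance, separated the days in the same direction in every group (difference 12.5, exact permutation test, two-sided, p = 0.00154, adjusted 0.0108). Differences with the array spread term are given below beside the others. The spread is taken from the same values and itself differs with the day, so that term cannot tell spread and day apart. A call lost under it is therefore no measure of the part of the spread.

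**Figure D1:**
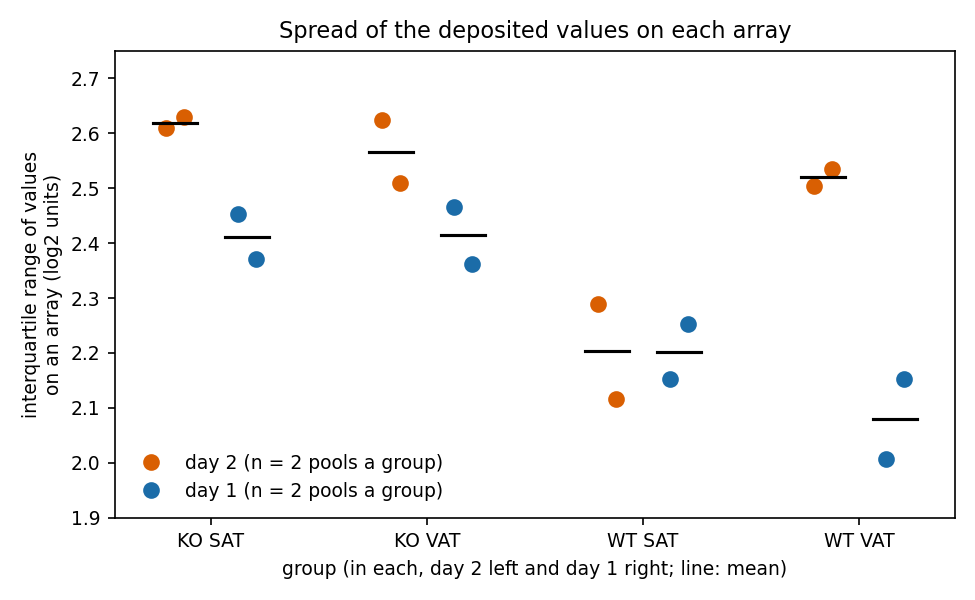
Interquartile range of the deposited log2 values on each of the 16 arrays (vertical axis, log2 units, not from 0), by group, with the 2 pools of day 2 left of the 2 pools of day 1 and lines at their means. Day 2 arrays lie above day 1 arrays in KO SAT, KO VAT and WT VAT, where the gap is 0.44, and overlap them in WT SAT.

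The day difference followed the level of a gene. Genes were divided into 10 classes of equal size by their mean over the arrays, class 1 the lowest. The median difference, day 2 minus day 1, was -0.06 in class 1, -0.10 in class 4, 0.30 in class 9 and 0.26 in class 10. In class 10, 49.8% of the genes passed with a higher value on day 2 and 0.351% with a lower one, against 0.702% and 11.6% in class 1. By group, class 9 stood at 0.24 in KO SAT, 0.18 in KO VAT, 0.00 in WT SAT and 0.75 in WT VAT. Over the 10 classes, medians after quantile normalization lay between -0.06 and 0.02.

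**Figure D2:**
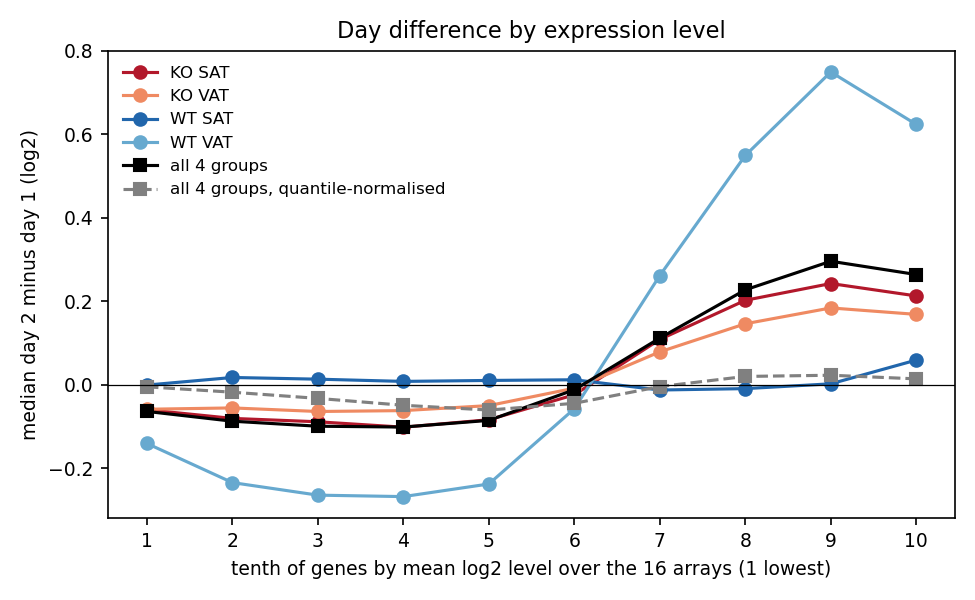
Median of day 2 minus day 1 (vertical axis, log2) for 10 equal classes of genes by mean level (horizontal axis, 1 lowest), in each group, over all 4 groups, and over all 4 after quantile normalization. The lines of KO SAT, KO VAT and WT VAT rise from below 0 to above it with level, up to 0.75 in WT VAT, while WT SAT stays near 0 and the quantile-normalised line lies between -0.06 and 0.02.

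The largest rises were spread over genes of unlike function. Those named are the 12 named genes with the largest rise, and further on the 12 with the largest fall, among genes that passed with the same sign in every group. Usp14 (1.21 over all groups, -0.18 in WT SAT) and the unnamed gene model 1810044D09Rik (-1.29) fell outside this rule and, with Tmem191c, are the 3 genes past 2-fold. Ptprc, which encodes the leukocyte phosphatase CD45, had values of 7.10, 7.91 and 8.38 on day 2, against 5.62, 7.13 and 7.77 on day 1. The days did not overlap in any of the 4 groups, although the ranges over all groups did. Its difference was 0.96 ± 0.17 on the log2 scale (SE, limma adjusted p = 0.00527). Slc9a3r1, a scaffold for membrane transporters, ran through 7.36, 8.14 and 8.62 on day 2, against 6.07, 7.19 and 8.11 on day 1, and again the days were apart in every group (0.89 ± 0.17, limma adjusted p = 0.00623). Smim14, which encodes a small membrane protein, stood at 7.13, 8.50 and 8.73 on day 2, against 6.28, 7.45 and 8.07 on day 1 (0.86 ± 0.13, limma adjusted p = 0.00389). Smim14 was also apart in every group. The other rises among the 12 largest were Tpm2 (a tropomyosin, 0.95), Mrpl44 (a mitochondrial ribosomal protein, 0.91), Igfbp4 (a binding protein of insulin-like growth factors, 0.88), Gtf2a1 (a subunit of the general transcription factor TFIIA, 0.88), Ppbp (a platelet chemokine, 0.86), Prdx4 (a peroxiredoxin of the secretory pathway, 0.83), Sfmbt1 (a chromatin protein, 0.83), Vma21 (an assembly factor of the proton pump V-ATPase, 0.82) and Dnajc15 (a mitochondrial co-chaperone, 0.82). Of these 12, Vma21 did not keep its sign with the array spread term, where it stood at -0.05, and it lost its call in 9 of the 16 fits without 1 array.

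The largest falls were spread over genes of unlike function too. Tmem191c, a gene for a transmembrane protein, had 5.75, 6.20 and 6.84 on day 2, against 7.19, 7.33 and 7.85 on day 1. No day 2 array reached the lowest day 1 array. Its difference was -1.15 ± 0.13 (SE, limma adjusted p = 0.00301). Dbh, which makes noradrenaline from dopamine, had 5.51, 5.74 and 6.23 on day 2, against 6.28, 6.84 and 7.07 on day 1, and here too the 2 sets of 8 arrays did not overlap (-0.91 ± 0.14, limma adjusted p = 0.00389). Scrn2, of the secernin family, stood at 9.05, 9.28 and 10.13 on day 2, against 9.996, 10.18 and 10.68 on day 1 (-0.85 ± 0.13, limma adjusted p = 0.00385). For Scrn2 the days were apart within every group and overlapped between groups. The remaining falls of the 12 were Cplx2 (complexin, which regulates vesicle fusion at synapses, -0.84), Pnliprp2 (a lipase related to that of the pancreas, -0.82), Relch (-0.79), Ticrr (which helps start DNA replication, -0.76), Ltf (lactotransferrin of neutrophil granules and secretions, -0.75), Oas1e (of the oligoadenylate synthetase family, -0.73), Sfi1 (a centrosome protein, -0.70), Svs5 (a seminal vesicle secretion, -0.69) and Shisal1 (-0.68). A different probe set of Relch went the other way and passed, at 0.38. Another of its probe sets stood at -0.61 and passed. Among 1518 genes that passed and had another probe set above background, 658 (43.3%) had another that passed in the same direction, and 60 (3.95%) had one that passed in the opposite direction.

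Many but not all genes that mark macrophages were higher on day 2 with values as deposited. Of the 7 markers above, Cd68, Fcgr1 and Lyz2 passed, while Adgre1 (which encodes F4/80, 0.25, limma adjusted p = 0.196), Itgam (CD11b, 0.19, 0.281), Csf1r (0.15, 0.248) and Mertk (0.41, 0.0691) did not. Of 21 core macrophage genes, 13 passed as higher and 0 as lower, against 17.2% and 11.1% of all genes, and the median difference was 0.30 against 0.01 for all genes. Their median level was 8.66, within class 10, where 49.8% of genes passed as higher and 0.351% as lower. Tyrobp, a signalling adaptor of myeloid receptors, had 10.75, 11.19 and 11.44 on day 2, against 10.20, 10.77 and 11.10 on day 1, with the days apart in every group (0.41 ± 0.08, limma adjusted p = 0.00756). Cd14, a co-receptor for bacterial lipopolysaccharide, had 7.21, 7.95 and 8.33 on day 2, against 6.55, 7.42 and 7.87 on day 1 (0.54 ± 0.13, limma adjusted p = 0.0118). Cd14 was apart in 3 of the 4 groups. Spi1, the myeloid transcription factor PU.1, and Fcer1g, the common chain of Fc receptors, differed by 0.39 and 0.42. Lyz2, whose promoter drives Cre in the KO, differed by 0.29 ± 0.10 (limma adjusted p = 0.0445), with -0.08 in WT VAT, and lost its call in 11 of the 16 fits that leave out 1 array. The median of the list was 0.08 after quantile normalization and 0.16 with the array spread term, and 0 of its 21 members passed under either.

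Subsets of macrophage genes gave like values. Over all genes 17.2% passed as higher and 11.1% as lower. By median level the resident (7.21) and alternative activation (7.47) lists lay within class 8, where these shares were 31.5% and 3.57%. The lipid-associated list (9.62) lay within class 10, where they were 49.8% and 0.351%. Among 24 genes of tissue-resident macrophages 12 passed as higher and 0 as lower, with a median of 0.28, 0.07 after quantile normalization and 0.05 with the array spread term. F13a1, a coagulation factor made by such macrophages, had 5.00, 6.12 and 7.15 on day 2, against 4.71, 5.56 and 6.61 on day 1, and differed by 0.64 ± 0.17 (limma adjusted p = 0.0178). It passed after quantile normalization too, where it stood at 0.62. Mrc1, the mannose receptor, and Ccl8, a chemokine, differed by 0.58 and 0.57. Of 20 lipid-associated macrophage genes 11 passed as higher and 0 as lower (median 0.24, 0.07 after quantile normalization, 0.09 with the array spread term), among them the fatty acid binding proteins Fabp5 (0.45) and Fabp4 (0.50). For 21 genes of alternative activation, the state that interleukin-4 induces, 6 passed as higher and 0 as lower, with a median of 0.17, 0.07 after quantile normalization and 0.05 with the array spread term. Klf4, a transcription factor of that state and of the early response, had 7.22, 8.26 and 8.84 on day 2, against 7.11, 7.70 and 8.19 on day 1 (0.53 ± 0.09, limma adjusted p = 0.00517). Retnla, a secreted marker of the state, differed by 0.44, and Clec7a, a receptor for fungal glucans, by 0.58.

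Antigen presentation, monocyte and complement lists were mixed. Over all genes 17.2% passed as higher and 11.1% as lower. By median level the class II (6.55) and monocyte (6.34) lists lay within class 7, where these shares were 20.6% and 9.82%. The complement list (7.94) lay within class 9, where they were 39.8% and 2.05%. Of 12 genes of MHC class II presentation 4 rose and 1 fell, and the median of 0.04 was -0.02 after quantile normalization and 0.19 with the array spread term. The 4 were H2-Ab1 (0.39), Cd74 (0.39), H2-Eb1 (0.35) and H2-Aa (0.31), which encode the class II chains and their invariant chain. The gene that fell was Ciita, the transcriptional activator of class II genes, at -0.27; another probe set of Ciita stood at 0.05 and did not pass. Among 13 monocyte genes 5 passed as higher and 0 as lower, with a median of 0.17 that was -0.02 after quantile normalization and 0.08 with the array spread term. Ly6c1 differed by 0.36 and Nr4a1, a nuclear receptor of patrolling monocytes, by 0.33. Of 16 complement genes 5 passed as higher and 0 as lower, with a median of 0.18 that was 0.06 after quantile normalization and -0.06 with the array spread term. C1qc and C1qb, chains of the initiating complex C1q, differed by 0.57 and 0.49.

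The list with the largest share of members that passed was that of type I interferon response genes. Of 23 measured, 18 passed as higher on day 2 and 0 as lower, and all 23 had a positive difference, from 0.16 to 0.48. The median was 0.37, against 0.11 after quantile normalization and 0.06 with the array spread term; 3 members (Usp18, Oasl2 and Mx2) passed under the first of these and 0 under the second. The median level was 9.22, within class 10, whose own median difference was 0.26. In that class 49.8% of genes passed as higher and 0.351% as lower, against 17.2% and 11.1% of all genes. Trim30a, an interferon-induced ubiquitin ligase, had 9.64, 9.95 and 10.40 on day 2, against 9.07, 9.59 and 10.17 on day 1, and the days were apart in every group (0.40 ± 0.09, limma adjusted p = 0.0105). Usp18, which removes the ubiquitin-like protein ISG15, had 9.13, 9.69 and 10.02 on day 2, against 8.66, 9.15 and 9.69 on day 1 (0.48 ± 0.11, limma adjusted p = 0.0106). The days of Usp18 were apart in 3 groups and overlapped in the other. Irf9, part of the factor that binds interferon-responsive promoters, differed by 0.41, and Oasl2, an oligoadenylate synthetase-like gene, by 0.39. By group, the median of the list was 0.26 in KO SAT, 0.30 in KO VAT, 0.18 in WT SAT and 0.69 in WT VAT.

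**Figure D3:**
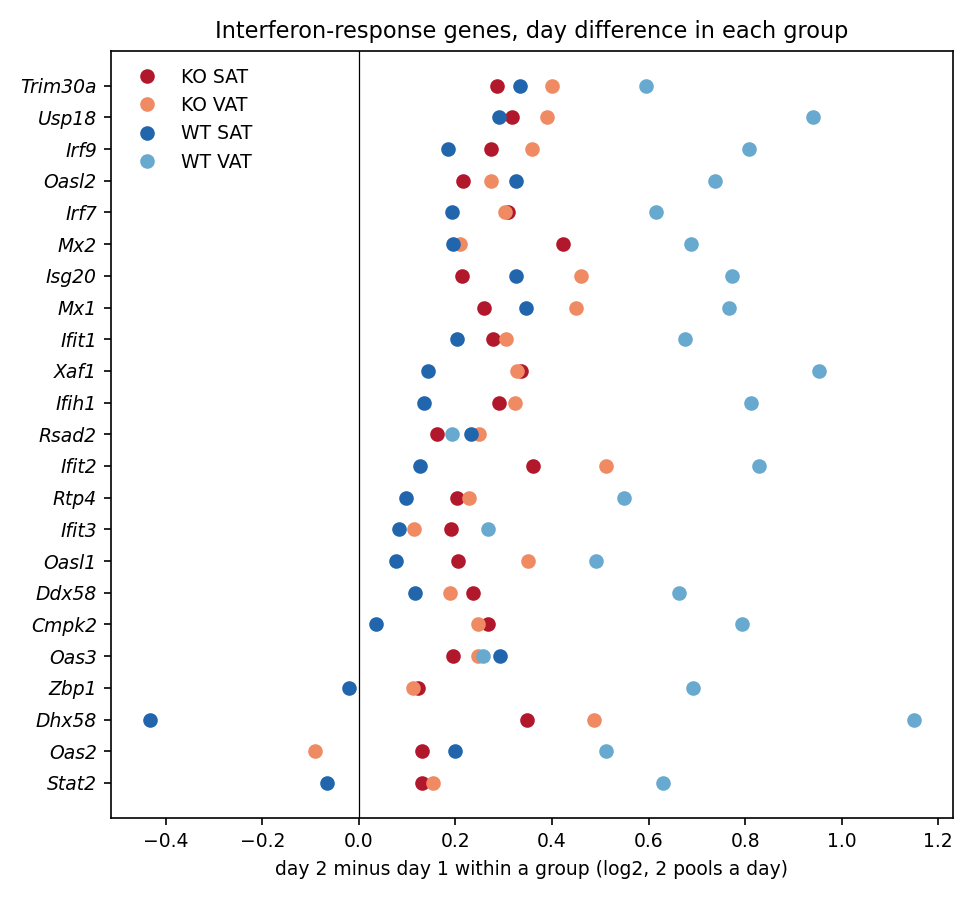
Day 2 minus day 1 (horizontal axis, log2) within each group for the 23 type I interferon response genes, from 2 pools a day in each group, ordered by p over all groups. WT VAT points lie farthest to the right for most genes, and Zbp1, Dhx58, Oas2 and Stat2 each have a group below 0.

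Promoters of interferon response genes commonly hold a repeat of GAAA spaced by 2 bases, which is read by interferon regulatory factors. The motif searched was GAAA, any 2 bases and GAAA again, on both strands, in RefSeq promoters of GRCm38.p6 from 250 bases before to 50 after each start. Promoters were given for 16 of the 23 genes, and 8 of the 16 held the motif, against 1079 of 27025 genes (3.99%). This describes the letters and is no measure of binding. The list was made of known interferon response genes, so its higher share is no result about these arrays. The 4 members with the motif and the smallest p are printed, with the motif or its reverse complement in capitals. Like all 23 members they had a positive day difference. Trim30a is shown at chr7:104465144-104465443 on the minus strand, 1 of its 2 promoters; Ifit1 lies at chr19:34640639-34640938 on the plus strand, Ifih1 at chr2:62646206-62646505 and Rsad2 at chr12:26456403-26456702, both on the minus strand.
Trim30a: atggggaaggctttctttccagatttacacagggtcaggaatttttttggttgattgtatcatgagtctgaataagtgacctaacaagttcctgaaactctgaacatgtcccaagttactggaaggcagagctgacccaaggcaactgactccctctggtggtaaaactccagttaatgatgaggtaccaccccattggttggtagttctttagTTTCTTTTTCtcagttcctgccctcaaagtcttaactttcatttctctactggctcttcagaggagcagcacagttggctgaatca
Ifit1: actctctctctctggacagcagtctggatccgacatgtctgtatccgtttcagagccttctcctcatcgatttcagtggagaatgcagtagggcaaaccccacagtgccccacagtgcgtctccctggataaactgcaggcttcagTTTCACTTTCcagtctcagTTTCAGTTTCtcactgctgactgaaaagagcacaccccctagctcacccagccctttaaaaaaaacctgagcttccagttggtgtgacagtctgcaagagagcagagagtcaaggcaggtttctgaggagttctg
Ifih1: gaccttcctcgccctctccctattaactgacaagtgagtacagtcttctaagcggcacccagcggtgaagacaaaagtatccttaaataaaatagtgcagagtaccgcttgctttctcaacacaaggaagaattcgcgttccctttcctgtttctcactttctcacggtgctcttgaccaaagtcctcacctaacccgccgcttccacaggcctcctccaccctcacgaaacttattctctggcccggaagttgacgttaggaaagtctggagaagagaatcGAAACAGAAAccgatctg
Rsad2: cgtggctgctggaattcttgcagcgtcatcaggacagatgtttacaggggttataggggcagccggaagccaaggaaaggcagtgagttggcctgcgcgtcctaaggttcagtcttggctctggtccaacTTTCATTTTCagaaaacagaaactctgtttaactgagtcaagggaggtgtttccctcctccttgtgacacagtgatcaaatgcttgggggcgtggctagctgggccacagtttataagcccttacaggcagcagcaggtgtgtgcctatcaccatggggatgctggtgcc
Ifit1, which binds viral RNA, differed by 0.37, Ifih1, a sensor of double-stranded RNA, by 0.39 and Rsad2, which blocks viral replication, by 0.21, and all 3 passed.

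Genes induced by interferon gamma and by NF-kB included rises and falls. Over all genes 17.2% passed as higher and 11.1% as lower. By median level the interferon gamma list (7.82) lay within class 9, where these shares were 39.8% and 2.05%. The NF-kB list (7.07) lay within class 8, where they were 31.5% and 3.57%. Of 19 interferon gamma genes 11 rose and 2 fell, with a median of 0.34, 0.17 after quantile normalization and 0.04 with the array spread term. Cxcl10, a chemokine for activated T cells, had 8.14, 9.70 and 10.36 on day 2, against 7.86, 8.94 and 9.98 on day 1, and its days were apart in every group (0.57 ± 0.10, limma adjusted p = 0.00495). The GTPases Igtp, Irgm2 and Gbp2, which act against pathogens inside cells, differed by 0.45, 0.38 and 0.55. Cxcl10, Irgm2 and Gbp2 were among the 4 that passed as higher after quantile normalization. The 2 that fell were Ciita and Nos2, which makes nitric oxide and lay under the background level (-0.27). Among 24 NF-kB driven genes 8 rose and 1 fell (Il12b, under the background level, -0.16), and the median of 0.27 was 0.09 after quantile normalization and -0.02 with the array spread term. Icam1, an adhesion molecule, had 7.80, 8.93 and 9.81 on day 2, against 7.29, 7.67 and 9.12 on day 1. Its days were apart in every group before and after quantile normalization (0.79 ± 0.15, limma adjusted p = 0.00623). Nfkbie, an inhibitor of NF-kB, differed by 0.56, Ccl3 by 0.40 and Cxcl2, a chemokine for neutrophils, by 0.38.

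Of 24 immediate early genes, which cells switch on within minutes of a stimulus, 12 passed as higher and 0 as lower (median 0.28, 0.08 after quantile normalization, 0.04 with the array spread term). Beside Klf4, these included Jun (0.46), a subunit of AP-1, Maff (0.54), a small Maf protein, and Egr2 (0.36), a zinc finger factor. Klf4 and Nr4a1 passed after quantile normalization. By median level (7.77) this list lay within class 9, where 39.8% of genes passed as higher and 2.05% as lower. Over all genes these shares were 17.2% and 11.1%. Of 14 heat shock chaperone genes, with a median level of 9.63 within class 10, 4 passed as higher and 0 as lower. In that class 49.8% of genes passed as higher and 0.351% as lower. The median difference of these chaperones, 0.23, was -0.0031 after quantile normalization and -0.06 with the array spread term. The 4 were Dnajb1 (0.42), Hspe1 (0.34), Hspa8 (0.23) and Chordc1 (0.24); Chordc1 stood at -0.01 after quantile normalization and lost its call in 12 of the 16 fits without 1 array. By median level (5.99) the circadian clock list lay within class 6, where 11.9% of genes passed as higher and 13.8% as lower. The median difference of its 18 genes was 0.08, 0.02 after quantile normalization and 0.01 with the array spread term. Of the 18 genes 4 rose and 1 fell, which is near the 17.2% and 11.1% of all genes. Those were Rora (0.68), Bhlhe40 (0.38), Per1 (0.28) and Nfil3 (0.24), against Tef at -0.22; other probe sets of Rora and Tef, both above background, had the opposite sign and did not pass. Tef lost its call in 10 of the 16 fits without 1 array.

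Genes of energy metabolism were higher on day 2 in the deposited values, as were many other genes at their level. Over all genes 17.2% passed as higher and 11.1% as lower. In class 10, which holds the median level of the respiratory chain list, these shares were 49.8% and 0.351%. In class 9, which holds that of the citric acid cycle list (8.46), they were 39.8% and 2.05%. Of 34 subunits of the respiratory chain and ATP synthase 23 passed as higher and 0 as lower, and all 34 had a positive difference. The median was 0.32, 0.07 after quantile normalization and 0.02 with the array spread term, and the median level was 9.68. Cox5a, a subunit of cytochrome oxidase, had 9.73, 10.16 and 10.33 on day 2, against 9.24, 9.63 and 9.88 on day 1 (0.48 ± 0.07, limma adjusted p = 0.00353). The days of Cox5a were apart in every group. Ndufa1, of complex I, differed by 0.66, and Cox5a, Ndufa1 and Cox6a1 passed after quantile normalization. Of 23 citric acid cycle genes 13 passed as higher and 0 as lower, with a median of 0.32, 0.04 after quantile normalization and -0.04 with the array spread term. Sdhd, a membrane anchor of succinate dehydrogenase, had 4.43, 5.15 and 5.44 on day 2, against 4.19, 4.48 and 4.95 on day 1 (0.49 ± 0.07, limma adjusted p = 0.00353). Its mean of 4.76 was below the background level. Mdh1, a malate dehydrogenase, differed by 0.54 and Ogdh, of the oxoglutarate dehydrogenase complex, by 0.32, and both passed after quantile normalization, together with Sdhd, Suclg1 and Idh1.

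Lists of the machinery of RNA and protein lay at high levels, where most genes were higher on day 2. By median level each lay within class 10, where 49.8% of genes passed as higher and 0.351% as lower. Over all genes these shares were 17.2% and 11.1%. Of 45 cytosolic ribosomal protein genes 22 passed as higher and 0 as lower, but after quantile normalization 0 passed as higher and 2 as lower (Rpl22 and Rpl17), and the median of 0.18 became 0.01, and -0.01 with the array spread term. Their median level was 10.91. Rps29 and Rpl7 differed by 0.19 and 0.28. Of 30 proteasome subunits 10 passed as higher and 0 as lower, and the median of 0.23 was -0.02 after quantile normalization and -0.08 with the array spread term. Psmd6, of the regulatory particle, differed by 0.45. Of 30 spliceosome genes 14 passed as higher and 0 as lower, and the median of 0.30 was 0.06 after quantile normalization and -0.05 with the array spread term. Hnrnpc, which packs nascent transcripts, differed by 0.43 and Prpf4b, a splicing kinase, by 0.53.

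Fatty acid synthesis and desaturation held 2 genes that passed under all 3 scalings, in opposite directions. Of 14 members 4 rose and 2 fell, against 17.2% and 11.1% of all genes. Their median level of 7.66 lay within class 9, where these shares were 39.8% and 2.05%. The median difference of 0.21 was -0.01 under both other scalings. Acss2, which makes acetyl-CoA from acetate, had 5.89, 6.52 and 7.68 on day 2, against 5.41, 5.87 and 7.12 on day 1. Its days were apart in every group, and it differed by 0.55 in KO SAT, 0.50 in KO VAT, 0.52 in WT SAT and 0.86 in WT VAT (0.61 ± 0.08 over all, limma adjusted p = 0.00301). The second probe set of Acss2 stood at 0.09 and did not pass. Fads2, the first desaturase in the making of long polyunsaturated fatty acids, had 5.65, 5.94 and 6.25 on day 2, against 6.14, 6.37 and 6.51 on day 1, with the days apart in every group (-0.38 ± 0.07, limma adjusted p = 0.00593). Another probe set of Fads2 above background had the opposite sign, 0.20, and did not pass. Elovl5 and Elovl1, which lengthen fatty acids, differed by 0.32 and 0.33, and Fads1, the second desaturase, by 0.29.

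Lists of other cell types gave fewer rises. Over all genes 17.2% passed as higher and 11.1% as lower. The neutrophil list, with a median level of 4.66, lay within class 4, where these shares were 5.38% and 18.8%. Of 17 neutrophil genes 6 fell and 2 rose, with a median of -0.17, -0.11 after quantile normalization and -0.05 with the array spread term. Camp, an antimicrobial peptide of granules, had 4.52, 4.71 and 4.90 on day 2, against 4.76, 5.03 and 5.49 on day 1, with the days apart in every group (-0.39 ± 0.06, limma adjusted p = 0.00465). Ltf had 4.95, 5.49 and 5.77 on day 2, against 5.57, 6.03 and 7.26 on day 1. S100a9 fell by 0.40, and Elane, Mpo and Il1r2, all under the background level, by 0.26, 0.32 and 0.17. The 2 that rose were Lcn2 (0.73), which macrophages also make on stimulation, and Csf3r (0.20). After quantile normalization 4 passed as lower (Camp, Ltf, Elane and S100a9) and 0 as higher. The summed level of the 4 neutrophil markers ran from 7.004 to 7.37 on day 2, against 6.999 to 7.63 on day 1.

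Of 9 seminal vesicle secretion genes, which belong to a male gland near the visceral fat, 3 fell (Svs5, Ceacam10 and Sva) and 0 rose, and all 9 had a negative difference. Ceacam10 lost its call in 11 of the 16 fits without 1 array and Sva in 5. Over all genes 11.1% passed as lower and 17.2% as higher. In class 5, which holds the list's median level of 5.22, these shares were 18.5% and 7.31%. The median was -0.30, -0.31 after quantile normalization and -0.35 with the array spread term. Svs5 was at 11.19 and 10.78 on day 2, against 11.76 and 11.72 on day 1, in KO SAT. In KO VAT it was at 7.93 and 8.12 on day 2, against 8.10 and 8.44 on day 1. WT SAT arrays had 8.39 and 9.14 on day 2, against 9.23 and 9.51 on day 1, and WT VAT arrays 8.15 and 8.14 on day 2, against 9.55 and 9.07 on day 1. KO SAT arrays were thus the highest on both days, and the days were apart in 3 groups but not in KO VAT (-0.69 ± 0.14 over all, limma adjusted p = 0.00756). Of 15 T cell genes 1 rose (Cd247, 0.51) and 2 fell (Cd8a, -0.34, and Cd6, -0.43), against 17.2% and 11.1% of all genes, and the median of -0.10 was -0.04 after quantile normalization and 0.06 with the array spread term. Cd6 lost its call in 11 of the 16 fits without 1 array, and another probe set of Cd247, under the background level, passed in the opposite direction (-0.31). Of 20 stromal genes 0 passed in either direction. In class 8, which holds their median level of 7.38, 31.5% of genes passed as higher and 3.57% as lower. The median difference of the stromal genes, 0.17, was 0.02 after quantile normalization and -0.10 with the array spread term. Col3a1, a collagen chain, stood at 0.36 ± 0.14 (limma adjusted p = 0.061), with 1.05 in WT VAT and 0.01 in KO SAT. Summed stromal markers ran from 10.86 to 11.91 on day 2, against 10.93 to 11.73 on day 1. Of 14 mesothelial genes 2 fell, among them Upk3b by 0.33, and 0 rose. By median level (4.16) this list lay within class 2, where 15.2% of genes passed as lower and 1.29% as higher. The mesothelial markers Msln (-0.15) and Wt1 (0.03) did not pass. Of 5 erythroid genes 1 rose and 1 fell (Alas2, under the background level, by 0.23). Their median level of 7.62 lay within class 9, where 2.05% of genes passed as lower and 39.8% as higher. The erythroid marker Hba-a1 (-0.39) did not pass. Of 7 sex-linked genes 3 fell (Zfy1, Zfy2 and Usp9y, all under the background level) and 0 rose, with a median of -0.16, -0.10 after quantile normalization and -0.08 with the array spread term. Usp9y lost its call in 12 of the 16 fits without 1 array. The median level of the sex-linked list, 4.41, lay within class 3, where 17.1% of genes passed as lower and 3.34% as higher. The part of other cells in the day difference was not tested.

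**Figure D4:**
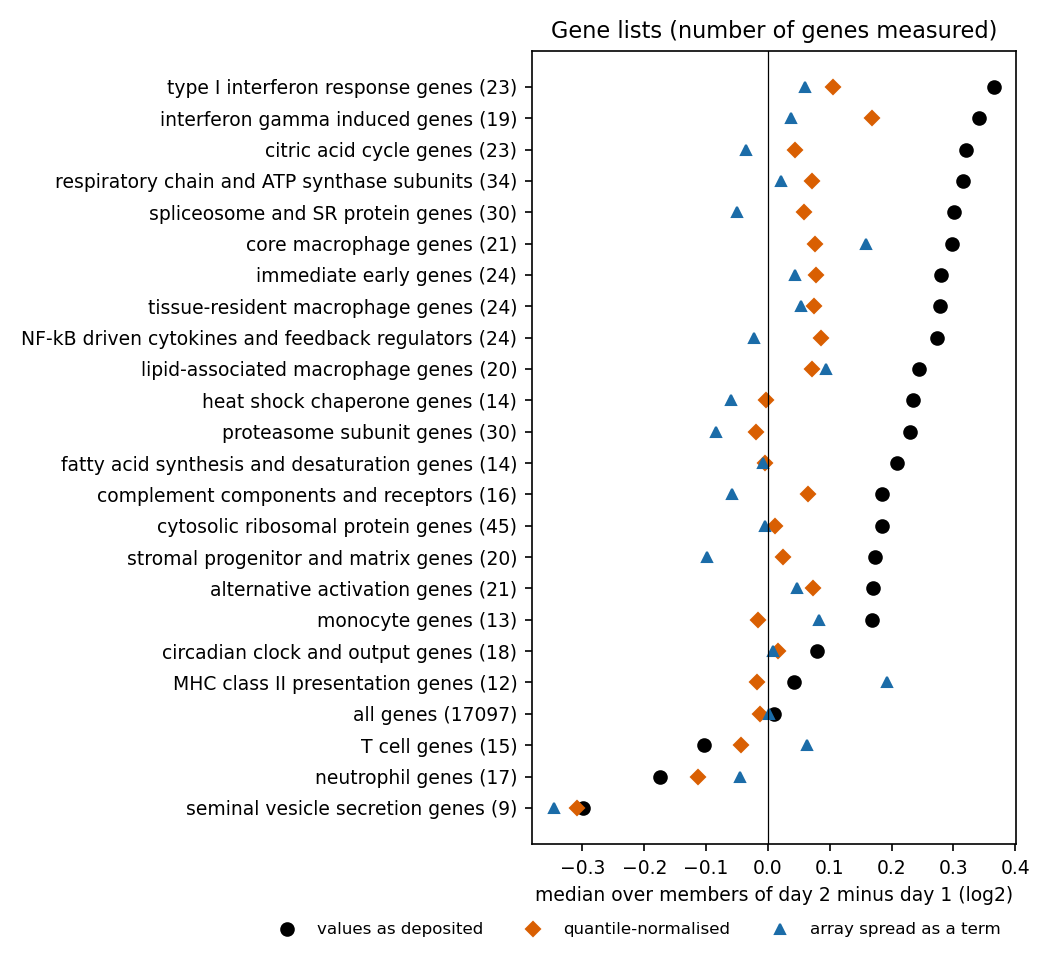
Median of day 2 minus day 1 (horizontal axis, log2) over the measured members of 23 gene lists and over all genes, with values as deposited, after quantile normalization and with the array spread term; numbers of genes are in brackets. Deposited medians reach 0.37 for type I interferon genes and 0.11 or less there under the other scalings. The medians of the MHC class II, monocyte, NF-kB, heat shock, citric acid cycle, ribosomal, proteasome, spliceosome, fatty acid synthesis, complement, stromal and T cell lists change sign under at least 1 of them.

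A smaller set of genes kept its sign and its call under every scaling, though not its size. With the same sign under all 3 scalings 46 genes passed (0.269% of those tested), 22 higher and 24 lower on day 2. The named genes given next, with Acss2 above, have the largest differences among them and were chosen after their values were seen. The unnamed gene model 1810044D09Rik (-1.29) was left out and was apart in 3 of the 4 groups. Not every gene of the set was apart in all groups. Gimap8 stood at -0.20 in WT VAT, and Txnrd2 (-0.26 over all groups) was apart in 2 groups. Mrpl44 had 6.46, 7.54 and 8.05 on day 2, against 5.75, 6.48 and 7.48 on day 1, and rose by 0.91 ± 0.13 (SE, limma adjusted p = 0.00302). Igfbp4 had 7.91, 8.89 and 9.34 on day 2, against 6.99, 8.10 and 8.45 on day 1, and differed by 0.77 in KO SAT, 0.76 in KO VAT, 1.02 in WT SAT and 0.99 in WT VAT (0.88 ± 0.12 over all, limma adjusted p = 0.00301). Both were apart in every group. Sfmbt1 (0.83), Wrap53 (of telomerase and Cajal bodies, 0.68), Socs7 (of the suppressors of cytokine signalling, 0.62), Prxl2a (a peroxiredoxin-like protein, 0.59) and Zbtb18 (a zinc finger repressor, 0.57) also rose and were apart in every group.

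Among the falls of this set, Tmem191c differed by -1.15 in KO SAT, -0.88 in KO VAT, -0.99 in WT SAT and -1.59 in WT VAT. Scrn2 followed with -0.85, Urb1 (of ribosome assembly) with -0.65, Tas1r3 (a subunit of sweet and savoury taste receptors) with -0.62, Ppp1r1a (an inhibitor of protein phosphatase 1) with -0.61, Igk-V21 (an immunoglobulin kappa variable segment) with -0.52, Gnaz (a G protein subunit of neurons and platelets) with -0.49 and Slc1a7 (a glutamate transporter of the retina) with -0.45. All 8 were apart in every group, and Igk-V21, like Wrap53 above, had a mean under the background level. Other probe sets of these genes did not all show the difference. Of the 46 genes 16 had another probe set above background, and in 6 of the 16 (37.5%) another passed in the same direction. Further probe sets of Igfbp4 stood at 0.55 and 0.55, that of Sfmbt1 at 0.43 and that of Scrn2 at -0.36, and all of these passed. The 3 other probe sets of Igfbp4, all above background, stood at 0.09, 0.14 and 0.01. The second probe set of Mrpl44 stood at 0.05 and those of Tmem191c between -0.15 and -0.10, and that of Urb1 had the opposite sign, 0.24. None of these 3 genes' further probe sets passed, nor did those 3 of Igfbp4. Sizes moved between the scalings. Scrn2 stood at -0.85 as deposited, -1.11 after quantile normalization and -0.38 with the array spread term. Mrpl44 stood at 0.91, 0.76 and 0.53 in the same order, Tmem191c at -1.15, -1.32 and -0.75, and Fads2 at -0.38, -0.50 and -0.43. With the array spread term Tas1r3 stood at -0.36 and Gnaz at -0.29. The plot of single arrays shows the values of 6 of the genes.

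**Figure D5:**
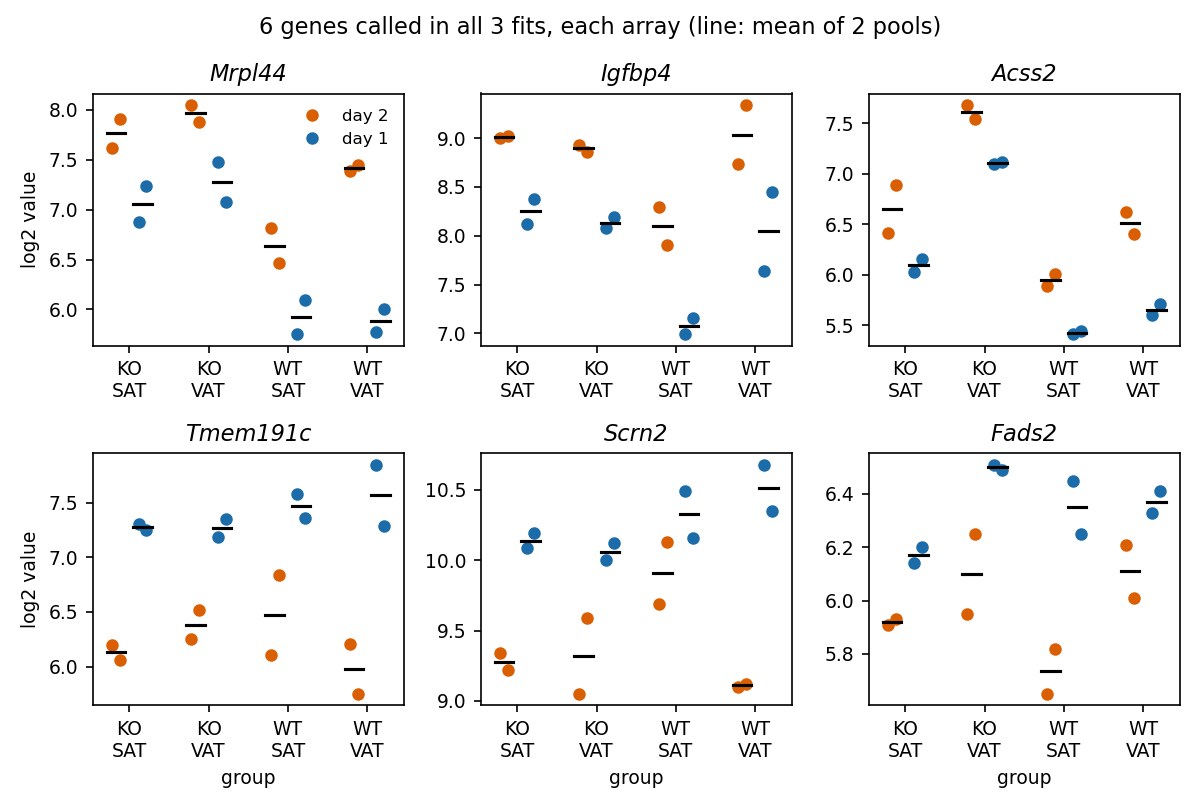
Deposited log2 values (vertical axes, not from 0) of Mrpl44, Igfbp4, Acss2, Tmem191c, Scrn2 and Fads2 on each array, by group, with the 2 pools of day 2 left of the 2 pools of day 1 and lines at their means. In each group both day 2 arrays lie above both day 1 arrays for the first 3 genes and below them for the last 3.

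Across all genes, the days did not overlap in any of the 4 groups, in the same direction, for 1086 genes (6.35%), 596 higher on day 2 (3.49%) and 490 lower (2.87%). After quantile normalization there were 676 (3.95%). Both before and after it, 132 genes were apart as higher and 280 as lower. Of the 4831 genes that passed, 4174 had the same sign in every group, a share that the fit over all groups favours.

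The day difference was not of the same size in the 4 groups. In a model with a mean for each group and day, 8943 genes (52.3%) passed in WT VAT, 5157 higher and 3786 lower on day 2, and 1243 of them differed by 2-fold or more. Only 4 genes passed in KO VAT (0.0234%), all higher. In KO SAT and WT SAT 0 passed (0% in each; limma), with 2170 and 1296 genes at an unadjusted p under 0.05, and with array weights 225 passed in KO SAT. The WT VAT count was 3923 without WT VAT pool 1, 4819 after quantile normalization (2032 higher and 2787 lower) and 0 with the array spread term, whose range differs between the days of that group by 0.44. Across genes, which are not independent replicates, the day differences of KO SAT and WT VAT had a Pearson correlation of 0.78 (17097 genes), those of KO SAT and KO VAT 0.66 and those of KO VAT and WT VAT 0.61. WT SAT correlated with the others at 0.27 (KO VAT), 0.10 (KO SAT) and -0.06 (WT VAT). All of these arrays share the amplification and the array type.

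In WT VAT the genes with the largest rises were of unlike function. Usp14, a deubiquitinase of the proteasome, had 6.78 and 6.73 on day 2, against 3.63 and 4.31 on day 1 (2.78 ± 0.28, limma adjusted p = 0.000366). Ccm2l, a gene of the endothelium, had 6.49 and 6.43 on day 2, against 4.17 and 4.27 on day 1 (2.24 ± 0.19, limma adjusted p = 0.000228). For both, the day 1 values lay under the background level, so the size of the rise is not exact. Nectin3, an adhesion molecule, and Plscr2, a phospholipid scramblase, differed by 1.98 and 1.97. The largest falls were in gene families with many near-identical copies, whose probes may not tell members apart. Astx6 had 6.67 and 6.32 on day 2, against 9.63 and 9.26 on day 1 (-2.95 ± 0.74, limma adjusted p = 0.00673). Vmn1r148, a vomeronasal receptor, stood at -2.57, Ssty2, a Y-linked spermiogenesis gene, at -2.56 and Pramel34 at -2.35. With the array spread term Nectin3 stood at -0.30, Astx6 at 0.71, Vmn1r148 at 0.12 and Ssty2 at 0.99. In WT SAT the day 2 values of the 4 genes with these largest falls lay above those of day 1, by 0.66 to 0.97. None of the 4 passed the test there. Astx6 had 9.01 and 9.39 on day 2, against 8.65 and 8.27 on day 1, in WT SAT.

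The 4 genes that passed in KO VAT were not all particular to that group. Mgll, which releases fatty acids from monoacylglycerols, had 7.33 and 7.39 on day 2, against 5.93 and 6.13 on day 1 (1.32 ± 0.13, limma adjusted p = 0.00353), and lay between 5.05 and 5.60 on the 12 arrays of the other groups. Gimap8, a GTPase of lymphocytes, had 5.50 and 5.41 on day 2, against 4.16 and 4.36 on day 1 (1.20 ± 0.15, limma adjusted p = 0.0178). Its day 1 values were under the background level, so this size is not exact. Gimap8 also differed by 0.81 in WT SAT, by 0.17 in KO SAT and by -0.20 in WT VAT. Idi1, of cholesterol synthesis, had 7.69 and 7.55 on day 2, against 6.75 and 6.56 on day 1 (0.97 ± 0.11, limma adjusted p = 0.0116), and was at or under 4.63 in the other groups. Dock10, an activator of small GTPases, differed by 0.94 and by 1.15 in WT VAT. Leaving out any single KO VAT array, which leaves 1 array of its day in the group, lost some or all of these calls. Leaving out KO SAT pool 1 or pool 2 also lost part of them. Mgll and Gimap8 passed with the array spread term. In KO SAT the smallest p belonged to Sarnp (0.70), Rassf4 (0.72), Ppp1r1a (-0.78) and Hsdl2 (0.64), each at an adjusted p of 0.213 (limma). In WT SAT it belonged to Zbtb4 (1.22, limma adjusted p = 0.166), Btbd35f21 (1.20), Odf1 (0.74) and Car15 (0.61).

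The differences between the day effects were then tested themselves. Between KO and WT 0 genes passed (0%; limma), with 727 at an unadjusted p under 0.05. The smallest p belonged to Idi1 (0.70), Krtap19-2 (0.98), Fam167a (0.81) and Fmo2 (0.65), all at an adjusted p of 0.287 (limma). Between VAT and SAT 2 genes passed (0.0117%). The day effect of Flt3l, a growth factor of dendritic cells, was 0.56 in KO VAT and 0.97 in WT VAT, against -0.09 in KO SAT and -0.08 in WT SAT (0.85 ± 0.11, limma adjusted p = 0.0228). That of Btbd35f21, whose mean lay under the background level, was lower in VAT (-1.57 ± 0.19, limma adjusted p = 0.0228). Every single array moved this count. It was 0 without any 1 of the KO VAT pools, of KO SAT pools 1, 3 and 4, of WT VAT pools 1, 3 and 4, or WT SAT pool 2. It was 8 without KO SAT pool 2, 5 without WT SAT pool 1, 4 without WT SAT pool 4, 734 without WT SAT pool 3 and 1891 without WT VAT pool 2.

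The interaction of genotype, depot and day passed for 618 genes (3.61%), 271 positive and 347 negative. It was 192 after quantile normalization and 0 with the array spread term. Single arrays moved it too. It was between 3 and 6 without KO SAT pool 2, 3 or 4, KO VAT pool 1 or 4, or WT SAT pool 2. It was 33 without WT SAT pool 4, 69, 199 and 86 without WT VAT pools 1, 3 and 4, 232 and 168 without KO VAT pools 2 and 3, and 369 without WT SAT pool 1. Without WT SAT pool 3 it was 3102 and without WT VAT pool 2 it was 3858. Usp14 had day effects of 0.84 in KO VAT and 1.38 in KO SAT, against 2.78 in WT VAT and -0.18 in WT SAT (interaction -3.51 ± 0.56, limma adjusted p = 0.0243). Ptgs2, the inducible cyclooxygenase, had 0.21 in KO VAT and 0.82 in KO SAT, against 1.63 in WT VAT and -0.64 in WT SAT (interaction -2.89 ± 0.66, limma adjusted p = 0.043). Tfpi, an inhibitor of coagulation, had the second largest negative interaction, -3.33, and Nectin3 -3.00. The positive ones were Igkj1, an immunoglobulin kappa joining segment (7.14), Ssty1 (4.02), Orly (3.32) and Krtap6-2 (3.27). Igkj1 was at 3.66 and 7.78 on the 2 day 1 arrays of KO SAT, so 1 array sets much of its value. Ssty1 had 6.53 and 6.74 on day 2, against 9.09 and 8.76 on day 1, in WT VAT, and 8.89 and 9.25 on day 2, against 7.81 and 8.18 on day 1, in WT SAT.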

How the data were processed

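Macrophage RNA of 16 pools was measured on Affymetrix mouse arrays. The deposited log2 values were made by the authors with RMA and the affy package, per the submitters' processing notes (versions not given in the sources used here). RMA equalises the distribution of probe values between arrays and then summarises them per probe set, where distributions may again differ. There are 45141 probe sets including 104 controls; the platform annotation names 28898 with 1 gene, 551 with several and leaves 15588 others unnamed here. Each of 17097 genes was read from its probe set with the highest mean, which mattered for 7180 genes. No filter was set. Arrays have no read depth, and their number limits the precision.

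The tests used lmFit and eBayes of limma (version 3.58.1, R 4.3.3) on the 16 arrays together. The day difference had the 4 groups as terms. Day differences within groups and their contrasts came from a model with a mean for each group and day, in which the groups share 1 estimate of spread. A gene was called below 0.05 after Benjamini-Hochberg adjustment of two-sided p-values. Errors after ± of a difference are standard errors. On simulated data for the day comparison (17097 genes, 200 changed) 80% of changes of 0.5 and 100% of changes of 1 on the log2 scale were recovered, with 16 false calls among 196. The simulated noise was independent between genes and arrays. It held no shift of array spread with the day and no day difference that varied between groups. The share of false calls in the measured values is thus not given by it.

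Named genes were, over all groups, the 12 strongest rises and the 12 strongest falls among calls with the same sign in every group. Within groups and for contrasts they were up to 4 each way, or the 4 with the smallest p, and in each list up to 4 members with the smallest p. Sucnr1, Lyz2 and the sex-linked markers were always included and unnamed gene models left out. Other list members are given where a count is spelled out, and were chosen after their values were seen. The comparison, the gene lists and these rules were chosen with earlier results of these data known. Pool numbers were not taken to pair groups, since not every correlation of pool deviations was over 0.1: 3 of 12 were (range -0.308 to 0.375). Within a genotype 2 of 4 were, both on day 1 (0.338 between KO VAT and KO SAT, 0.375 between WT VAT and WT SAT). Alternatives were a filter on dim probe sets, means of probe sets, median centring, quantile normalization, the array spread as a term, other settings of limma, replicate blocks, and arrays or groups left out.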

Additional observations from a re-analysis of the deposited data

Results flagged for a closer look

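Values were centred on their group mean over both days, and in each day's 8 arrays the most extreme one was set against its nearest neighbour. In 36 of 266 cases the gap took up more of the whole range than Dixon's critical value of 0.526. For 8 independent values of 1 normal distribution chance flags about 1 in 20 sets, but that rate does not apply here. After this centring a group with a larger day difference, as WT VAT has, lies apart on each day. The genes are also not independent and were in part chosen for their day difference.

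On day 1 nearly all of these arrays were WT VAT pool 1, which also had the smallest interquartile range. It was low, with gap shares in brackets, for the interferon and inflammation genes Usp18 (0.556), Irf9 (0.691), Igtp (0.612), Gbp2 (0.539), Cxcl2 (0.547) and Icam1 (0.535). Of chaperones it was low for Dnajb1 (0.573) and Chordc1 (0.610). Of the respiratory chain it was low for Cox5a (0.601), Atp5h (0.601) and Uqcrb (0.772). For RNA and protein machinery the gap shares were Rpl7 (0.680), Psmd6 (0.643), Psmc4 (0.675), Prpf4b (0.562) and Hnrnpc (0.773), all low. It was low also for Gtf2a1 (0.601), Col3a1 (0.556) and Wrap53 (0.530). The same array was high for Tmem191c (0.653), Elane (0.592), Usp9y (0.604) and Gnaz (0.718). The exception on day 1 was Fads2, where WT SAT pool 1 was high (0.617).

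On day 2 WT VAT pool 4 was high for Ppbp (0.532), Smim14 (0.593), Spi1 (0.672), Mrc1 (0.560) and Igtp (0.560). WT SAT pool 4 stood apart for Ticrr (0.582), Ly6c1 (0.558), Hspa8 (0.527) and Ogdh (0.568). WT VAT pool 3 did so for Idh2 (0.642) and Cxcl12 (0.560). Ceacam10, of the seminal vesicle list, had KO SAT pool 4 lowest (0.802).

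Day effects that differed between groups by a test of the difference were counted in 2 genes between VAT and SAT and in 618 for the interaction of genotype, depot and day (limma). Kdm5d, a Y-linked gene, was among the 618, with an interaction of -1.46 (limma adjusted p = 0.0497).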

How the results depend on the processing

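Limits come first. Pools lie within days, so pool and day cannot be told apart by a fixed block, and with 2 pools a day in each group the within-group tests rest on a spread shared by all groups. Dim probe sets carry little signal over background.

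The count of genes past the test over all groups was 1871 after quantile normalization, 1406 with that and without WT VAT pool 1 (chosen after seeing the data), 204 with the array spread term and 161 with no group terms. It was 224, 548, 7802 and 1399 without the 4 arrays of KO SAT, KO VAT, WT SAT and WT VAT, and 2773 to 7709 with single arrays left out. With pool number as a random replicate block it was 7843 (correlation -0.103), and 6189 with genotype and pool number as a random replicate block (correlation -0.137, and 0.163 in the model with a mean for each group and day). Each block lies within 1 day, so a negative correlation lowers the standard error of the day difference. The higher counts under these blocks therefore do not strengthen the day difference. These replicate blocks gave 367 and 2047 genes for the interaction of genotype, depot and day, and 2 and 17 for VAT against SAT; no other count moved by over 1.5 times under them.

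In KO SAT the count of 0 was 225 with array weights and 0 to 2 with single arrays left out. In KO VAT the count of 4 was 17 with intensity trend and robust settings, 85 with array weights, 2 with the array spread term, 21 with its 4 arrays alone, and 0 to 6 with single arrays left out. In WT SAT it was 4 with trend and robust settings and 0 to 4 with single arrays left out. In WT VAT it was 4819 after quantile normalization, 0 with the array spread term, 3721 with its 4 arrays alone, and 3923 to 9275 with single arrays left out. For KO against WT it was 1 with trend and robust settings and 0 to 1 with single arrays left out. For VAT against SAT it was 10 with means of probe sets, 8 after quantile normalization, 21 with trend and robust settings, 0 with the array spread term, and 0 to 1891 with single arrays left out. The interaction of genotype, depot and day gave 310, 192 and 0 genes with means of probe sets, quantile normalization and the array spread term, and 3 to 3858 with single arrays left out.

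Signs turned for a few named genes. With the array spread term the difference over all groups was -0.052 for Vma21, -0.0538 for Plac8, 0.0627 for Cd6, -0.0071 for Col3a1, -0.0107 for Col5a1, -0.065 for Cxcl12, -0.21 for Kdm5d and -0.20 for Eif2s3y. In WT VAT it was then -0.30 for Nectin3, 0.71 for Astx6, 0.12 for Vmn1r148 and 0.99 for Ssty2. After quantile normalization Chordc1 stood at -0.0143, and at -0.0303 without WT VAT pool 1, where Kdm5d stood at -0.0062. The cause was not tested. With the array spread term 116 values of named genes kept their sign but not their call and 39 kept both their sign and their side of the threshold; after quantile normalization these were 62 and 103.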
